A study of Mus musculus with 6 samples.

Results

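ExNeuron6 is 1 of the 12 classes that the authors' annotation gives to droplet nuclei from formalin-fixed, paraffin-embedded (FFPE) mouse brain. Its members were taken from that annotation and from nothing else, and they are 209 of 7031 nuclei (2.97%). The other classes of the same name hold 2121 (ExNeuron1), 1098 (ExNeuron2), 1105 (ExNeuron3), 716 (ExNeuron4) and 331 nuclei (ExNeuron5), and 1451 nuclei fall into non-neuronal classes, namely astrocytes, oligodendrocytes, oligodendrocyte precursors (OPC), endothelial cells, microglia and fibroblasts. The droplet nuclei form 1 library, whose label gives the tissue as mouse cortex, the strain as C57BL/6J and the age as 8 to 12 weeks, with tissue cut as 50 µm scrolls. The labels list several ways of taking the paraffin off and do not say which served for the droplets, how many animals were used or their sex. SMART-Seq2 plates of single FFPE nuclei, in 2 batches that hold nuclei, carry the same tissue, strain and age labels and were used as libraries that the droplet classes were not made from.

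The files do not spell out the name ExNeuron, which is read here as excitatory neuron. Excitatory neurons of the forebrain load glutamate into vesicles with the transporter made from Slc17a7, and many neurons below the cortex use Slc17a6. Inhibitory neurons make GABA with the enzymes of Gad1 and Gad2 and load it with the transporter of Slc32a1. Neuron classes are further told apart by homeodomain transcription factors, and those of the Meis and Pbx families are known to bind DNA together.

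Nuclei of ExNeuron6 held a median of 353 UMIs (unique molecular identifiers, each standing for 1 captured RNA molecule; quartiles 294 and 449) and 297 genes (quartiles 254 and 363). At a common depth of 250 UMIs, which left out 3 of its nuclei, the median was 219.5 genes, within the 218 to 224 of the other classes. Mitochondrial genes took 3.36% of its UMIs (exact binomial 95% interval 3.24 to 3.49), and classes ranged from 3.09% to 3.68%. Summed over its nuclei the class holds 81259 UMIs, so 1 UMI of a gene is worth 12.3 CPM (UMIs scaled to a class total of 1000000), and genes of low level could not be measured. No barcode was present more than once, and no doublet caller was run here.

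With 1 library there is no test between classes. Each class value below is a sum of UMIs expressed as CPM with an exact Poisson 95% interval, or a share of nuclei with an exact binomial one, and both cover counting error only. Since the classes were clustered from these same counts, a difference between classes describes the class and tests nothing.

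The genes highest in ExNeuron6 relative to the other ExNeuron classes included Cpa6 and Lgr5, which gave at most 34.1 and 26.5 CPM in any other of the 12 classes, and genes such as Kcnb2 and Dock10 that were also present in other classes. Among 711 genes with at least 20 UMIs in the class, 43 were at least 2-fold higher than in the pooled nuclei of ExNeuron1 to ExNeuron5, which is 6.05% of the genes ranked. Of 853 genes with at least 200 CPM in the pooled nuclei, 39 (4.57%) were at least 2-fold lower. Against the non-neuronal nuclei, 83 of 711 genes (11.7%) were higher and 80 of 840 (9.52%) were lower. The 20 largest ratios against the other ExNeuron classes are called the leading genes below. For 16 of these 20 the level in ExNeuron6 was the highest of the 12 classes.

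The transcription factors among the leading genes were Meis2, Pbx3 and Tshz1. Meis2 (chromosome 2, 115863064 to 116065839, minus strand, GRCm38) is a homeodomain gene of the Meis family that is active in several forebrain lineages. Its level was 1304 CPM (1068 to 1578, from 106 UMIs). It was 64.1 CPM in ExNeuron3, 119 in ExNeuron4, 147 in ExNeuron1, 191 in ExNeuron2 and 195 in ExNeuron5, and at most 196 in a non-neuronal class (OPC). ExNeuron6 thus stood 9.48-fold (7.51 to 11.9) above the pooled other ExNeuron nuclei, while the other 11 classes ranged from 64.1 to 196 CPM. Pbx3, a partner of the Meis family, had 603 CPM (446 to 797) against 71.5 in the pooled nuclei, a ratio of 8.43 (5.96 to 11.7). Fibroblast nuclei also held Pbx3, at 454 CPM from 47 nuclei, within the interval of ExNeuron6. Tshz1, a zinc finger gene known from the development of the olfactory bulb, had 258 CPM (160 to 395, from 21 UMIs) against 43.0, a ratio of 6.01 (3.54 to 9.77).

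The 3 largest ratios were those of Cpa6, Lgr5 and Ptpro. Cpa6 encodes a secreted carboxypeptidase (chromosome 1, 10324720 to 10719945, minus strand). It gave 43 UMIs in the 209 nuclei of ExNeuron6 (529 CPM, 383 to 713) and 16 UMIs in the 5371 nuclei of the other ExNeuron classes (8.00 CPM, 4.58 to 13.0), a ratio of 66.1 (36.5 to 126). Lgr5 encodes a receptor for R-spondins (chromosome 10, 115450311 to 115587780, minus strand). Its level was 295 CPM (189 to 439) against 12.0, and the non-neuronal nuclei held 2 UMIs of it, a ratio of 77.5 with a counting interval from 19.3 to 677. Ptpro, a receptor-type tyrosine phosphatase, had 517 CPM (373 to 699) against 24.0, a ratio of 21.5 (13.9 to 33.3). Microglia held Ptpro at 205 CPM, the highest level outside ExNeuron6. Further down the order, Tenm3, a teneurin that guides synaptic partners, had 1108 CPM (891 to 1361) against 253, a ratio of 4.38 (3.46 to 5.50). In ExNeuron4 Tenm3 reached 499 CPM, so its distance to the nearest class was 2.22-fold.

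The other leading genes encode proteins of several kinds. Kcnb2, a delayed-rectifier potassium channel subunit (chromosome 1, 15287254 to 15723750, plus strand), gave the most UMIs of the leading genes, 189. Its 2326 CPM (2006 to 2682) stood against 451, a ratio of 5.16 (4.39 to 6.04). Cpne4, a copine that binds membranes with calcium, had 689 CPM (521 to 895) against 70.0, a ratio of 9.84. Pcbp3, a protein that binds poly(C) RNA, had 1071 CPM (858 to 1321) against 129, a ratio of 8.29. Myo16, an unconventional myosin of neurons, had 763 CPM (585 to 978) against 113, a ratio of 6.78. The remaining leading genes had ratios from 3.40 to 4.47 and included Prkca, a protein kinase C (837 CPM against 218), the phosphatase gene Ppm1e (640 against 184), the muscarinic receptor gene Chrm2 (246 against 68.5) and the channel-interacting gene Kcnip1 (308 against 90.6). ExNeuron5 held Chrm2 at 232 CPM, within the interval of ExNeuron6 (150 to 380). Dock10, St6galnac3 and Ano4 were higher in oligodendrocytes (717, 754 and 561 CPM) than in ExNeuron6 (246, 541 and 455), and Kcnip1 was higher in ExNeuron4 (360).

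**Figure D1:**
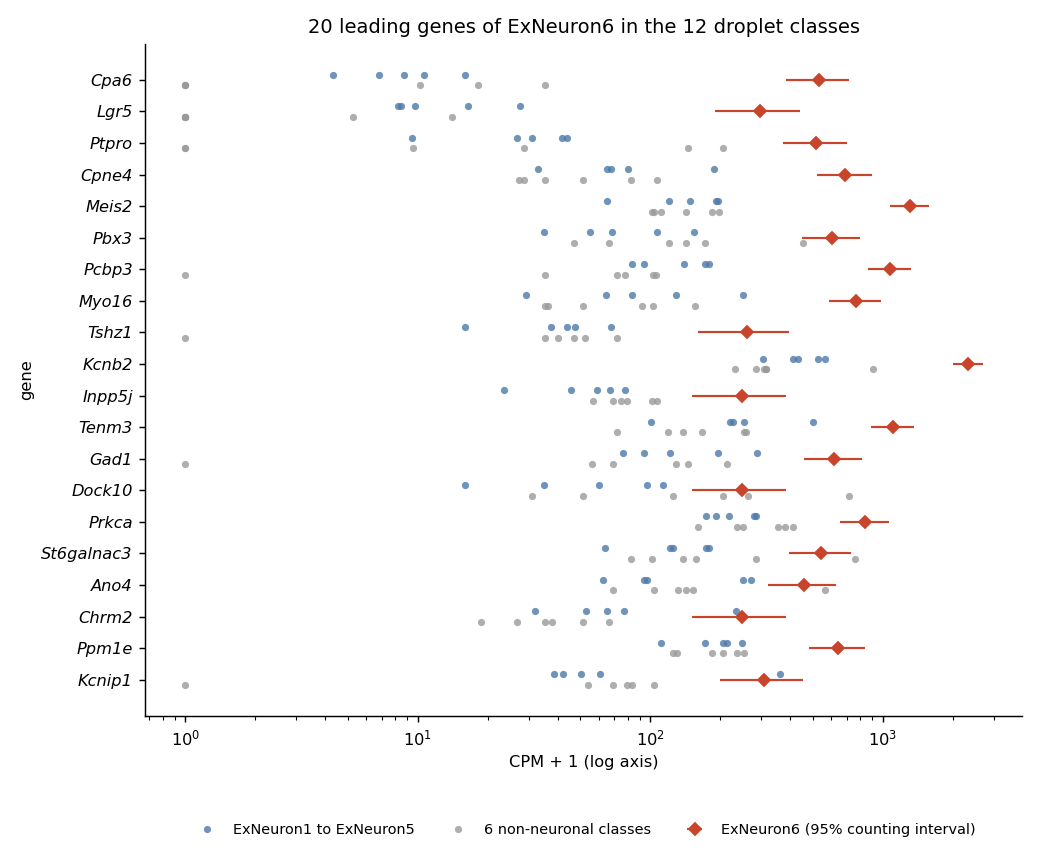
Level of the 20 leading genes in each class, as CPM plus 1 on a log axis; red diamonds are ExNeuron6 with its 95% counting interval, blue points ExNeuron1 to ExNeuron5, grey points the non-neuronal classes, and points at the left edge are classes with 0 UMIs. For 16 of 20 genes the diamond lies to the right of the other 11 classes, as for Meis2 at 1304 CPM.

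The 10 largest ratios against the non-neuronal nuclei were those of leading genes as well. They were Lgr5, Cpa6, Pcbp3 (13.4), Ptpro (12.3), Cpne4 (11.3), Meis2 (8.25), Kcnb2 (7.88), Chrm2 (7.18), Myo16 (6.91) and Tenm3 (5.82). Compared singly, each of the other ExNeuron classes gave Cpa6 among its 3 largest ratios, from 35.3 against ExNeuron5 to 160.04 against ExNeuron4. The last rests on 1 UMI of Cpa6 in ExNeuron4, with a counting interval from 27.2 to 6466. Shares of nuclei were compared at 250 UMIs per nucleus. A Meis2 UMI was found in 19.4% of ExNeuron6 nuclei, 3.1% of the other ExNeuron nuclei and 3.7% of non-neuronal nuclei. For Kcnb2 these shares were 30.1%, 9.2% and 6.3%, for Pcbp3 18.9%, 3.2% and 1.9%, and for Cpa6 8.3%, 0.3% and 0.1%. Empty droplets were not analysed here, so the level of free RNA was not measured, and the shares in the non-neuronal nuclei are given as a comparison at the same depth.

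The data went against the name in the transmitter genes. Gad1 (chromosome 2, 70553072 to 70602014, plus strand) is a leading gene, at 615 CPM (457 to 811, from 50 UMIs). In the other ExNeuron classes it was 75.0, 93.0, 121, 194 and 288 CPM in ascending order, the last in ExNeuron4, and non-neuronal classes reached at most 212 (endothelial). At 250 UMIs, 14.1% of ExNeuron6 nuclei held Gad1, against 6.7% in ExNeuron4 and 2.8% of non-neuronal nuclei. Slc17a7 in the class lay within the range of the non-neuronal classes. It had 505 CPM in ExNeuron6, 393 in astrocytes, 522 in OPC and 601 in endothelial nuclei, and 12.6% of ExNeuron6 nuclei held it against 11.2% of non-neuronal nuclei. ExNeuron1 had the highest level of Slc17a7 of the 12 classes, at 729 CPM and 16.7% of nuclei. Slc17a6 had 3 UMIs in ExNeuron6 (36.9 CPM) against 47.6 CPM in the non-neuronal nuclei. Camk2a, a kinase of excitatory synapses, had 554 CPM and 14.1% of nuclei against 472 CPM and 11.7% in the non-neuronal nuclei.

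The other genes of inhibitory neurons did not follow Gad1 as a group. Gad2 had 135 CPM in ExNeuron6 (11 UMIs) against 281 in ExNeuron4 and 74.3 in the non-neuronal nuclei. Slc32a1 had 24.6 CPM from 2 UMIs, against 76.0 in ExNeuron4. Dlx6os1, a transcript of the Dlx locus of inhibitory lineages, had 111 CPM from 9 UMIs and at most 68.3 in another class (microglia). Adarb2, a gene of several interneuron groups, had 960 CPM, below ExNeuron4 (1402) and OPC (1045). Tbr1, a transcription factor of excitatory neurons, had 135 CPM from 11 UMIs against 53.5 in the other ExNeuron nuclei. It was also highest in ExNeuron6 of the 12 classes, with at most 70.7 CPM in another class (endothelial). Because Gad1 stands against the name while Slc17a7 and Slc17a6 lie near their levels in non-neuronal nuclei, the class is called by its annotation and its leading genes here, and no other cell type is given to it.

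**Figure D2:**
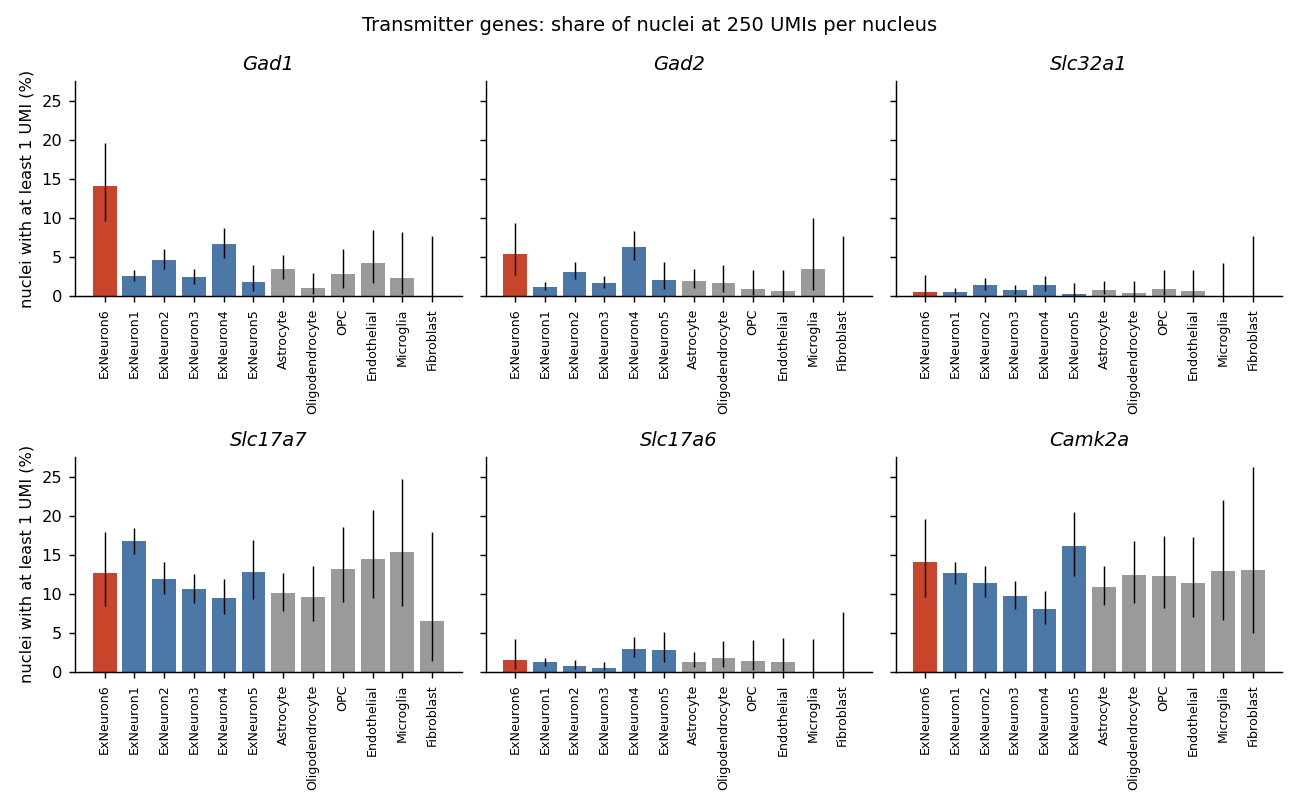
Share of nuclei with at least 1 UMI of 6 transmitter and synapse genes in each class after thinning to 250 UMIs; bars are shares in percent and lines exact binomial 95% intervals. Gad1 reaches 14.1% in ExNeuron6 and 6.7% in ExNeuron4, while Slc17a7 lies between 6.5% and 16.7% in the 12 classes.

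Lists of marker genes were counted over 872 genes with a mean of at least 200 CPM over ExNeuron6 and the pooled other ExNeuron nuclei. A gene under 200 CPM in either group enters only through its level in the other, which favours a call. Of these 872 genes 3.56% were at least 2-fold higher and 1.83% at least 2-fold lower, and their median ratio was 1.023. Of the inhibitory neuron list, 7 of 18 genes were counted. Gad1 and Adarb2 were past 2-fold higher and Reln past 2-fold lower, with a median ratio of 1.22. Gad1 is a leading gene, chosen by its ratio in this comparison, so its being past 2-fold was fixed in advance. Of the excitatory neuron list, 6 of 12 were counted and 0 were past 2-fold, with a median ratio of 0.945. The summed level of the excitatory list was 4787 CPM, between 3607 and 6077 in the other ExNeuron classes and between 2978 and 4745 in the non-neuronal ones. The inhibitory list summed to 4455 CPM, below ExNeuron4 (9106) and OPC (5238).

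The hippocampal pyramidal, striatal and dentate granule lists had their highest summed level of the 12 classes in ExNeuron6. The hippocampal pyramidal list summed to 2289 CPM against at most 823 elsewhere. Without the leading genes Meis2 and Cpne4 the rest of that list summed to 295 CPM, and 4 of its 12 genes had 0 UMIs. The striatal list summed to 2412 CPM against at most 2285 elsewhere, and to 1108 without Meis2, and the dopamine receptor genes Drd1 and Drd2 had 0 UMIs. Drd1 and Drd2 reached at most 17.7 and 9.92 CPM in any class, too low for 0 UMIs to tell classes apart. Of the deep cortical layer list 0 of 4 counted genes were past 2-fold, and Fezf2, the transcription factor gene of subcerebral projection neurons, had 0 UMIs. Fezf2 was also low elsewhere, at most 34.1 CPM (microglia), so its 0 UMIs tell little. The dentate granule list, which holds none of the leading genes, summed to 923 CPM from 75 UMIs, against 908 in fibroblasts, 897 in astrocytes and at most 842 in another ExNeuron class. In that list Stxbp6, a gene of vesicle fusion, was past 2-fold at 345 CPM against 103. Of the cerebellar granule list, 0 of 8 counted genes were past 2-fold higher and 1, Reln, was past 2-fold lower.

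Few genes of the channel, receptor and synapse lists were past 2-fold against the other ExNeuron classes. Kcnb2 was the 1 gene of 12 counted in the potassium channel list past 2-fold higher, Tenm3 the 1 of 23 in the synaptic adhesion list and Prkca the 1 of 19 in the calcium and cAMP list. All of these are leading genes, chosen by their ratios in this same comparison, so their being past 2-fold was fixed in advance. No other gene of those lists was past 2-fold higher. Cacna1c, the pore subunit of an L-type calcium channel, was the 1 of 12 among sodium, calcium and HCN channels, at 1194 CPM against 523. Past 2-fold lower were Ptprd and Cntn5 of the adhesion list, Rims1 of 20 counted presynaptic genes, and the netrin receptor genes Unc5c and Unc5d of 8 counted axon guidance genes. None of 9 counted ionotropic glutamate receptor genes, 7 GABA-A receptor genes, 5 metabotropic glutamate receptor genes and 8 scaffold genes was past 2-fold. The summed level of the scaffold list was the highest of the 12 classes, at 15875 CPM against at most 15144 elsewhere. Against non-neuronal nuclei, where 7.44% of 860 genes were past 2-fold higher, the axon guidance list had 4 of 8 (Robo2, Epha3, Epha5 and Epha6), the potassium channel list 4 of 11 (Kcnb2, Kcnh7, Dpp6 and Dpp10) and the neuron list 3 of 11 (Nrxn3, Celf4 and Dlg2). Of these 3 lists, 1 gene was past 2-fold lower, Sema6d of the axon guidance list (135 CPM against 377), beside 5.23% of the 860 genes.

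Of the markers of other cell types, the astrocyte and OPC lists lay within the range of the other ExNeuron classes and the oligodendrocyte, microglia, endothelial, mural and ependymal lists above it. The astrocyte list summed to 2929 CPM (other ExNeuron classes 2463 to 2980), the oligodendrocyte list to 2880 (2387 to 2774), the microglia list to 369 (202 to 237), the endothelial list to 258 (105 to 188), the mural and leptomeningeal list to 172 (124 to 159) and the ependymal and choroid list to 628 (473 to 607), the last also the highest of the 12 classes. The OPC list summed to 1514 CPM (1116 to 2113). Pdgfra and Olig2 of the OPC list and P2ry12, Tmem119 and Ptprc of the microglia list had 0 UMIs. Of the ExNeuron6 nuclei, 22.0% held a UMI of a glial or endothelial marker that is rare in ExNeuron nuclei, against 17.5% of the other ExNeuron nuclei. Without these 46 nuclei, 41 genes were past 2-fold higher and 37 past 2-fold lower. The number of genes ranked can also change without them, so these counts are not shares.

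Genes low in ExNeuron6 included several that were lower than in glia. Plxna4, a receptor for semaphorins, gave 2 UMIs (24.6 CPM, 2.98 to 88.9) against 221 CPM in the other ExNeuron nuclei and 137 in the non-neuronal nuclei. Reln, a secreted glycoprotein of granule cells and some interneurons, had 73.8 CPM (27.1 to 161) against 451 and 261, and 790 in ExNeuron3. Both were lower in ExNeuron6 than in any other of the 12 classes, and so were Nell2 (86.1 CPM against 348 in the other ExNeuron nuclei), Zfp521 (73.8 against 265), Gabbr2, a GABA-B receptor subunit (98.5 against 351), Lhfp (123 against 344) and Osbpl6 (98.5 against 266). The rest of the 10 smallest ratios were Megf11 (0.295), Thrb (0.363) and Xkr6 (0.371). Against non-neuronal nuclei the smallest ratios belonged to genes of glia. They were Mertk, a phagocytic receptor (1 UMI, ratio 0.052 with an interval from 0.0013 to 0.296), Prr5l (1 UMI, 0.058), Gpc5, a glypican of astrocytes (98.5 CPM against 1232), Npas3 (86.1 against 985) and Cdk19 (2 UMIs, 0.102).

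The 5 genes that took most UMIs in ExNeuron6 are expressed across the library. Gm42418, a gene model that overlaps ribosomal RNA, took 2.63% of ExNeuron6 UMIs, and the neurexin gene Nrxn3 0.812%. Nrxn3 was higher in ExNeuron6 than in any other class, at 8122 CPM against 6091 in ExNeuron4, the next. The scaffold gene Dlgap1 had 6867 CPM against 6194 in the other ExNeuron nuclei, and Dgkb, a diacylglycerol kinase, 6485 against 4695. Kcnip4, a potassium channel interacting protein that is high in the other neuron classes, had 6436 CPM in ExNeuron6 against 11327. Its non-neuronal level was 5902 CPM and its share of nuclei at 250 UMIs was 63.6% in ExNeuron6 and 60.8% in non-neuronal nuclei.

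The nuclei of ExNeuron6 differed among themselves in how many leading genes they held. At 250 UMIs, 47 of 206 nuclei (22.8%) held 0 of the 20 leading genes, 53 held 1 and 32 held 2. At the other end, 45 nuclei (21.8%, 16.4 to 28.1) held at least 5, and the highest number was 9. In ExNeuron1 to ExNeuron5 3 of 5235 nuclei held as many as 5, and in the non-neuronal nuclei 0 of 1407. The share of nuclei with at least 1 leading gene was 77.2% in ExNeuron6 and 32.5% to 52.8% in the other classes. Leading genes took 1.2% of the UMIs of the class and 0.17% to 0.36% in the others. Since the leading genes were chosen from these nuclei, the shift itself is no finding, and the spread within the class is given as a description.

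**Figure D3:**
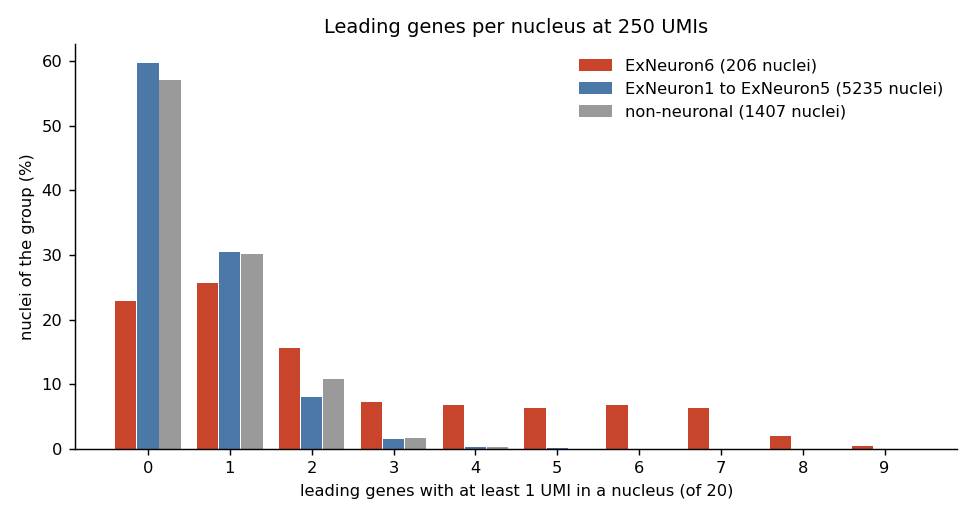
Percent of nuclei by how many of the 20 leading genes have at least 1 UMI after thinning to 250 UMIs, for ExNeuron6 (red), ExNeuron1 to ExNeuron5 (blue) and non-neuronal nuclei (grey). ExNeuron6 spreads from 0 (22.8%) to 9 genes, while the other nuclei lie at 0 to 5.

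Depth within the class moved with some leading genes and not with others. The 103 nuclei above the class median of 353 UMIs were set against the 106 at or below it. Meis2 had 1846 CPM (1488 to 2264) in the deeper nuclei and 446 (244 to 748) in the shallower ones. Tenm3 had 1565 and 382, Prkca 1224 and 223, and Kcnb2 3130 and 1050. In contrast, Gad1 had 582 CPM (390 to 836) in the deeper nuclei and 668 (414 to 1022) in the shallower ones, Pcbp3 1103 and 1019, and Myo16 782 and 732. Of 13 leading genes with at least 40 UMIs, 8 were at least 2-fold higher in the deeper nuclei, beside 11.9% of 285 such genes of any kind, and since the leading genes were chosen from these nuclei, nothing is read from this count. CPM scales each group to the same total, and the part of depth in these differences was not tested.

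Several leading genes were higher in the nuclei that held Meis2. A Meis2 UMI was present in 56 of the 209 nuclei (median 435.5 UMIs) and absent from 153 (median 325). Cpa6 had 1274 CPM (877 to 1789) with Meis2 and 181 (86.6 to 332) without, Tenm3 2626 and 397, Prkca 1931 and 325, and Kcnb2 4942 and 1102. Ptpro, Pbx3, Cpne4 and Myo16 were 3.14, 2.42, 2.30 and 2.14 times as high with Meis2. Gad1 (849 against 506 CPM, intervals 532 to 1286 and 336 to 731) and Pcbp3 (1467 against 885) differed less than 2-fold over the whole class. Of 12 leading genes with at least 40 UMIs, Meis2 itself left out, 10 were at least 2-fold higher with Meis2, beside 22.9% of 284 genes of any kind. Meis2 and these genes were chosen as rises in the same nuclei, so nothing is read from this count. Splits by other leading genes gave smaller or no differences for some of them. With and without a Gad1 UMI (43 and 166 nuclei), Cpa6 had 513 and 534 CPM, Pbx3 456 and 644 and Prkca 626 and 895. Other leading genes were higher with Gad1, among them Ptpro (911 and 408 CPM), Lgr5 (513 and 235) and Tenm3 (1708 and 942). With and without a Cpa6 UMI, Meis2 had 3439 and 906 CPM and Tenm3 2735 and 803, while Myo16 had 781 and 760 and Pcbp3 1094 and 1066. Slc17a7 went the other way, with 6 UMIs in the nuclei with Meis2 (232 CPM, 85.0 to 504) and 632 CPM (440 to 879) in those without. It was 1 of 38 genes (13.4% of the 284) at least 2-fold lower with Meis2, among them Mbp, Apoe, Actb, Cox8a and mt-Nd5. These 38 genes had a median length of 98.1 kb, beside 491 kb for the 65 that were at least 2-fold higher, and the part of this in the values of Slc17a7 was not tested. In the 28 nuclei with a Cpa6 UMI, Slc17a7 had 1 UMI (78.1 CPM, 1.98 to 435), against 584 CPM (417 to 796) in the other 181.

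Part of the differences by Meis2 was also seen within the deeper nuclei. Within the nuclei above the median, those with Meis2 (47, median 472 UMIs) had 2718 CPM of Tenm3, 2028 of Prkca and 1380 of Cpa6, and those without it (56, median 432) had 563, 525 and 113. Gad1 was 863 and 338 CPM in the same nuclei, past 2-fold, and Slc17a7 173 and 675 CPM. At or below the median only 9 nuclei held Meis2 (median 299 UMIs), against 97 without it (median 292), and their values rest on few UMIs. Kcnb2 had 5885 CPM (3364 to 9556) with Meis2 and 592 (345 to 949) without in these shallower nuclei, and Tenm3 1839 (597 to 4291) and 244. Cpa6, Ptpro and Cpne4 had 1 UMI each in the 9 nuclei (368 CPM, 9.31 to 2049), against 244, 279 and 383 CPM without Meis2. Slc17a7 had 2 UMIs with Meis2 (736 CPM, 89.1 to 2657) and 592 CPM without, so its lower level with Meis2 was not seen there. The 97 nuclei at or below the median without Meis2 held Pcbp3 at 836 CPM (536 to 1244) and Gad1 at 662 (399 to 1034). They held Cpne4 at 383 (191 to 686) and Ptpro at 279 (120 to 549), and each level lay above the other ExNeuron classes. In those nuclei Tenm3 had 244 CPM (98.1 to 503) and Prkca 139 (38.0 to 357), intervals that span the levels of the other ExNeuron nuclei (253 and 218). All of these genes were chosen as rises in the whole class, those 97 nuclei included, so the values are a description. The same split outside the class is given as a description, since the genes were chosen as rises in ExNeuron6. Among ExNeuron1 to ExNeuron5, 234 nuclei held Meis2, and they had 463 CPM of Tenm3 against 241 without Meis2, 728 of Kcnb2 against 436, and 158 of Gad1 against 143. Cpne4 had 148 CPM against 65.9 there, and Pcbp3 207 against 125. Leading genes lower with Meis2 there included St6galnac3 (78.7 CPM against 149) and Kcnip1 (49.2 against 92.8), and Prkca had 246 against 217. The 234 nuclei with Meis2 had a median of 389 UMIs, against 322 in those without. Cpa6 was too low outside the class for this split, at 0 UMIs with Meis2 and 8.43 CPM without.

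**Figure D4:**
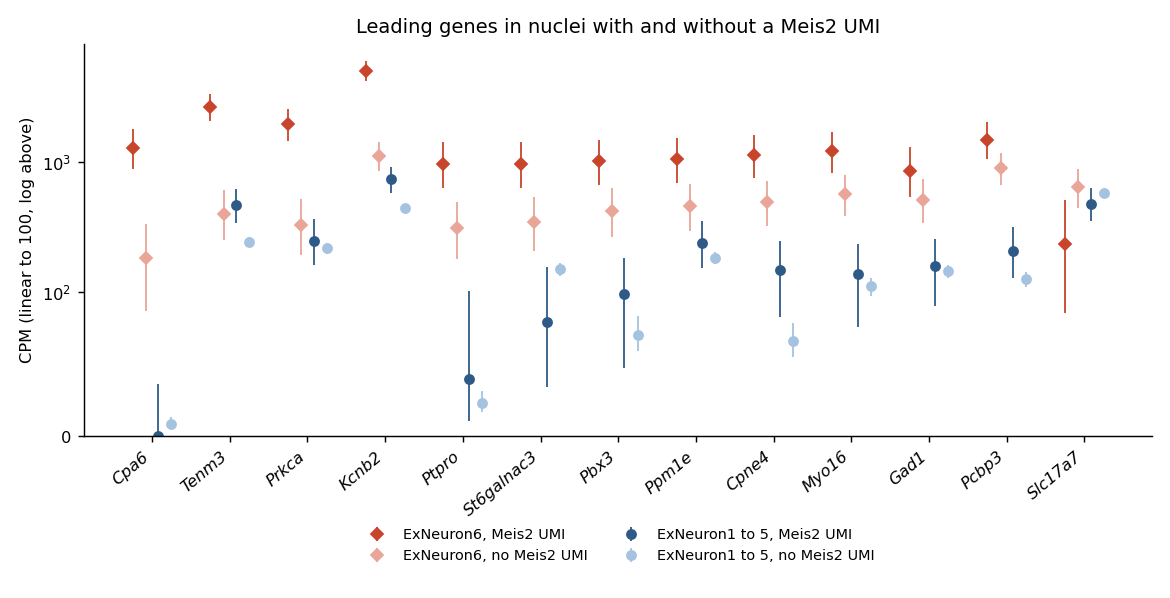
CPM of 12 leading genes and Slc17a7 in nuclei with and without a Meis2 UMI, in ExNeuron6 (diamonds) and in ExNeuron1 to ExNeuron5 (circles), with 95% counting intervals; the axis is linear to 100 CPM and logarithmic above. Dark diamonds lie above pale ones for the leading genes, by most for Cpa6 (1274 against 181) and Tenm3 (2626 against 397), and below for Slc17a7 (232 against 632).

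The UMIs of the leading genes were spread over nuclei. The most UMIs of Meis2 in 1 nucleus were 6, or 5.66% of its total, and those of Kcnb2 were 8, or 4.23%. Among the leading genes the highest such share was 15.0%, for Dock10.

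Plate nuclei gave a view of the leading genes that the droplet classes had no part in. The plates hold 98 nuclei in batch 1 (median 180584 counts) and 134 in batch 2 (median 42747), sequenced without UMIs, and no class was assigned to them. Meis2 had at least 1 count in 38.8% (29.1 to 49.2) of nuclei in batch 1 and 26.9% (19.6 to 35.2) in batch 2. In batch 2, 53.0% of the Meis2 counts came from 1 nucleus, so its pooled level there rests on that nucleus. Cpne4 was detected in 63.2% of batch 1 nuclei with Meis2 (24 of 38) and in 16.7% of those without (10 of 60). In batch 2 these shares were 69.4% (25 of 36) and 16.3% (16 of 98). Pbx3 was found with Meis2 in 68.4% and without it in 10.0% of batch 1 nuclei, and in 66.7% and 25.5% in batch 2. For Gad1 the shares were 55.3% and 15.0% in batch 1 and 55.6% and 14.3% in batch 2.

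Other leading genes were found with Meis2 in the plates to a varying degree. Of the 16 leading genes detected in 24 to 139 of the 232 nuclei, 16 were more often found in nuclei with Meis2 in each batch. Of the 5293 genes detected as widely, 3261 were more often found with Meis2 in batch 1 and 3935 in batch 2. The share was at least 20 percentage points higher for 11 of 16 in batch 1, beside 5.91% of 5293 genes detected as widely, and for 12 of 16 in batch 2, beside 10.5%. The median difference over the 16 genes was 35.3 points in batch 1 and 26.1 in batch 2, against 2.46 and 6.46 over the 5293 genes. Tshz1 differed between batches, with 43.3 points in batch 1 and 8.50 in batch 2. Nuclei with Meis2 also held more genes, at a median of 1792.5 against 1533 in batch 1 and 2087.5 against 1385 in batch 2, and the part of this in the shares was not tested beyond the comparison with all genes. Inpp5j, in 4.1% and 2.2% of plate nuclei, Chrm2, in 11.2% and 8.96%, and Kcnip1, in 77.6% and 91.8%, lie outside that range of detection. Inpp5j was found in 1 of 38 batch 1 nuclei with Meis2 and 3 of 60 without, and in 2 of 36 and 1 of 98 in batch 2. Chrm2 was found in 18.4% with and 6.67% without Meis2 in batch 1, and in 16.7% and 6.12% in batch 2. For Kcnip1 these shares were 81.6% and 75.0% in batch 1 and 94.4% and 90.8% in batch 2. At least 3 leading genes other than Meis2 were found in 94.7% of batch 1 nuclei with Meis2 (36 of 38) and 90% without (54 of 60), and in 97.2% (35 of 36) and 73.5% (72 of 98) in batch 2.

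**Figure D5:**
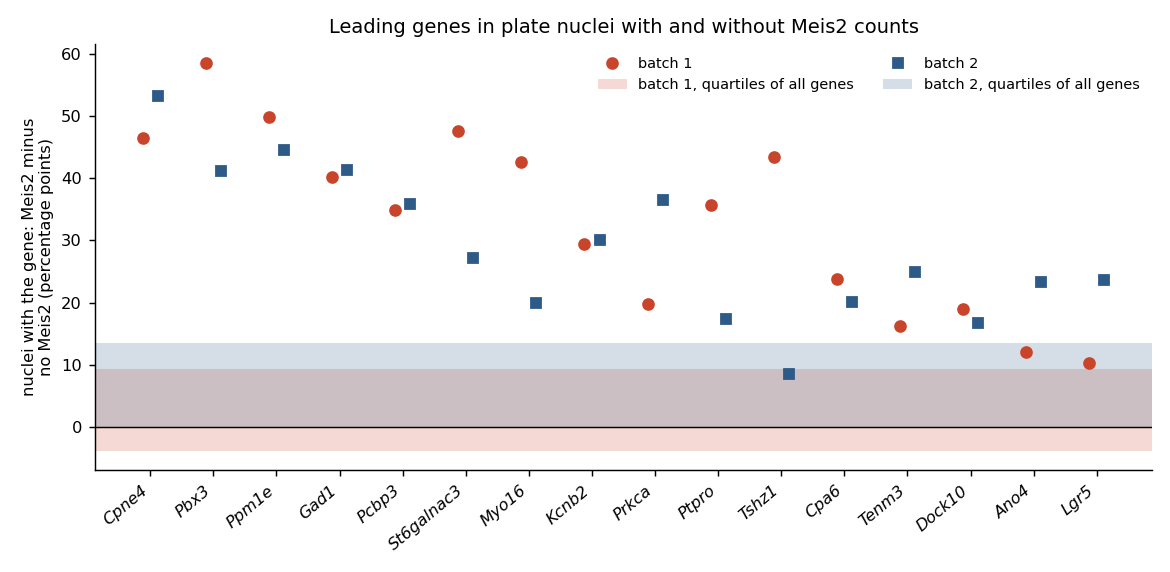
Difference in the share of plate nuclei with a gene between nuclei with and without Meis2 counts, in percentage points, for 16 leading genes in batch 1 (red circles) and batch 2 (blue squares); bands span the quartiles over 5293 genes detected as widely. The points of each batch lie above the band of that batch except for Tshz1 in batch 2, at 8.50.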

How the data were processed

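Droplet nuclei were grouped by the authors' deposited annotation. Droplet values are raw UMI counts as deposited, on a reference named mm10_premrna per the file headers, and plate values are raw read counts as deposited. The deposited annotation gives totals per nucleus and the fraction of mitochondrial counts. Column sums equal the deposited totals in 6900 of 7031 nuclei and differ by 1 UMI in 131. The authors' gene table lists genes in as many as 23828 cells, more than were deposited, so the deposited nuclei are a subset. Aligner, counter and doublet handling are not stated by the sources used. Batch 3 of the plates lists 0 nuclei.

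UMIs were summed per class and scaled to CPM over all UMIs of the class. Intervals are exact Poisson or Clopper-Pearson 95% intervals, and a group at 0 takes a floor of 3 counts. Nuclei were thinned without replacement to 250 UMIs. Rises were ranked over genes with at least 20 UMIs in ExNeuron6 and falls over genes with at least 200 CPM in the reference; splits within the class used genes with at least 40 UMIs. The naming rule took the 20 largest and 10 smallest ratios against the other ExNeuron nuclei, the 10 largest and 5 smallest against non-neuronal nuclei, the 3 largest against each ExNeuron class, the 5 largest shares of UMIs, and list members by count. Of 493 list entries 487 matched by symbol, 2 by a RefSeq synonym and 4 had no row. The members and lists were chosen with earlier results of these data known, and the splits by depth, Meis2 and Cpa6 after values had been seen. Positions come from GENCODE M21 (GRCm38), which holds 40 of the 40 genes ranked by ratio or share. Some results under this rule are left out of the text. The scripts were tested on simulated data. Python 3.11, numpy 2.4.6, pandas 2.3.3, scipy 1.17.1 and matplotlib 3.10.9 were used.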

Additional observations from a re-analysis of the deposited data

How the results depend on the processing

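No paired analysis was possible because the class comes from 1 library. The counts of genes past 2-fold depend on the filter, the fold and the depth. The number of genes ranked changes with the filter and with thinning, so the counts below cannot be compared as shares. Against the other ExNeuron classes, 43 genes were higher as reported, and 27 after thinning to 250 UMIs (of 380 genes that kept enough UMIs), 111 with at least 10 UMIs, 22 with at least 40 UMIs and 21 at 3-fold. The 39 lower genes became 121 with at least 100 CPM, 7 with at least 400 CPM and 6 at 3-fold. Against the non-neuronal nuclei, the 83 higher genes became 49 after thinning, 182 with at least 10 UMIs and 28 at 3-fold, and the 80 lower genes became 253 with at least 100 CPM and 31 at 3-fold. In the plates, asking for 5 counts of Meis2 in place of 1 gave 27.6% of nuclei in batch 1 and 16.4% in batch 2. The 30 genes named against the other ExNeuron classes kept their direction and stayed past 2-fold with classes weighted equally, without ExNeuron1 or ExNeuron4, after thinning, scaled without Malat1 and mitochondrial genes, and without nuclei with glial or endothelial marker UMIs. The 15 named against non-neuronal nuclei did so with classes weighted equally, after thinning and under that scaling, the 3 alternatives of these run for them. The named genes were picked as the most extreme ratios of these same UMIs. Staying past 2-fold was therefore likely in advance and is no independent support for them. The class holds 81259 UMIs, and genes under 20 UMIs were left out of the main ranking of rises as a chosen setting.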

Other observations

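Within ExNeuron6, nuclei with a Meis2 UMI also differed from the rest in genes outside the leading set. Of 284 genes with at least 40 UMIs in the class, 65 were at least 2-fold higher in nuclei with Meis2 and 38 at least 2-fold lower. Slc8a1, a sodium and calcium exchanger, had 2124 CPM with Meis2 and 434 without, Cacna1c 2317 and 668, and Nrxn3 13514 and 5600. Zeb2, a zinc finger transcription factor, had 1313 and 343, and Adarb2 1815 and 560. Of other genes of the inhibitory list, Erbb4 had 1274 and 686 CPM. Under the cut of 40 UMIs, Nxph1 had 927 and 126 and Gad2 154 and 126. Among the lower genes, Kcnip4 had 2857 CPM with Meis2 and 8111 without, a level with Meis2 that is also under the 5902 CPM of the non-neuronal nuclei. The myelin gene Mbp had 502 and 1102, the lipid carrier gene Apoe 425 and 885, the synaptic vesicle gene Syn1 348 and 885 and the actin gene Actb 463 and 1102. The nuclei with Meis2 were deeper (median 435.5 against 325 UMIs), and the part of depth in these values was not tested.

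The 65 higher genes had a median length of 491 kb and the 38 lower ones 98.1 kb, beside 340 kb over the 284 genes. Between ExNeuron6 and the other ExNeuron classes, the 43 higher genes had a median length of 222 kb beside 165 kb over the genes ranked, and the 39 lower genes 324 kb beside 178 kb.

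Across 711 genes with at least 20 UMIs in ExNeuron6, log2(CPM + 10) of ExNeuron6 had its highest Pearson r with ExNeuron4 (0.839), followed by ExNeuron2 (0.834), ExNeuron5 (0.828) and ExNeuron1 (0.826), and 0.784 with ExNeuron3. OPC (0.803) and astrocytes (0.790) lay above ExNeuron3. By Spearman's rho the order changed, with ExNeuron1 (0.790) before ExNeuron4 (0.785), ExNeuron5 (0.783) and ExNeuron2 (0.774), so the most similar class depends on the measure. The genes are not independent replicates and the classes share a library and differ in depth, so these values are a description.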
